A study of Mus musculus with 20 samples.

Results

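The comparison described here sets the uteri of 5 IF model mice that had received hCG-cultured PBMCs (PBMC-hCG group) against the uteri of 5 IF model mice that had received no cells (IF group). These 10 samples were taken from the 20 of the series by their labels. The other 10 were 5 untreated pregnant mice (control group) and 5 IF model mice given PBMCs cultured without hCG (PBMC group). All mice were wild-type B6D2F1 females of 8 to 12 weeks with a vaginal plug, and 1 uterine horn per mouse was collected at 18:00 on day 3.5, before implantation. Both compared groups had received the same subcutaneous RU486, at 3 mg/kg at 9:00 on day 3.5, 9 h before collection. They differed in what entered the uterus on day 1.5, since PBMC-hCG mice were given 50000 PBMCs per horn. The cells came from non-pregnant mice and had been cultured for 24 h with 5 IU/mL hCG. IF mice had no injection, so the cells, the hCG carried with them and the intrauterine procedure cannot be told apart in this comparison. Uteri of mice given culture medium were not analysed here.

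RU486 (mifepristone) blocks the progesterone receptor and, with lower potency, the glucocorticoid receptor. In the mouse uterus progesterone restrains the response of the epithelium and stroma to estrogen, and a short rise of estrogen on the day before attachment opens the window in which a blastocyst can implant. Blood mononuclear cells (lymphocytes and monocytes) secrete cytokines, and hCG is the gonadotropin by which a human embryo maintains the corpus luteum. Interferon-stimulated genes encode antiviral enzymes, ubiquitin-like modifiers and antigen-processing proteins. They are switched on when type I or type II interferon activates STAT transcription factors, and many carry an interferon-stimulated response element in their promoters.

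Expression was given as TPM, a transcript level scaled by transcript length and by the total of each library. The number of reads behind a value is therefore not known, and counting error cannot be stated. Of 45777 genes, the 18706 above 0 TPM in all 20 libraries were tested on log2(TPM + 0.1) with limma. A gene is said to have risen or fallen where the Benjamini-Hochberg adjusted p over all tested genes was below 0.05. By this rule 1423 genes (7.61%) rose and 1121 genes (5.99%) fell, the smallest adjusted p being 0.0101. The median log2 fold change of all tested genes was 0.05, with quartiles of -0.15 and 0.26. At an unadjusted p below 0.05, 35.0% of tested genes differed, 20.7% being higher and 14.3% lower in the PBMC-hCG group. All 5 PBMC-hCG values lay above all 5 IF values for 5.05% of genes and below them for 2.19%.

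The number of genes past the adjustment depended on single libraries. PBMC-hCG mouse 1 lay nearest to the IF group for many of the genes below, IF mouse 5 was the most extreme IF library for many others, and IF mouse 3 had the highest level of the interferon list in its group. Without PBMC-hCG mouse 1, 4166 genes passed the adjustment, without IF mouse 3, 5061 genes, and without IF mouse 1, 2334 genes. Leaving out any other mouse left between 0 and 34 genes past it by limma, with 0 when IF mouse 5 or PBMC-hCG mouse 3 was left out. Unadjusted counts moved less, since in each of the 10 cases 25 to 32 of the 36 interferon genes and 17 to 19 of the 25 early estrogen genes had an unadjusted p below 0.05 in the direction given below. The calls that follow are those of all 10 mice.

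Genes induced by interferon were higher in the PBMC-hCG group. Of 36 members, all of which were tested, 18 rose and 0 fell, against 7.61% of all tested genes that rose. At an unadjusted p below 0.05, 30 were higher (20.7% of all tested genes). The median log2 fold change of the 36 was 0.72, compared with 0.05 for all tested genes. The promoters of 4 members that rose are shown first, because they carry the sequence through which interferon acts on such genes. They were taken from the RefSeq promoter table (GRCm38.p6, each gene's own strand, up to 170 bases before the transcription start, bases in annotated exons left out), and capitals mark every match on either strand to gaaa, any 2 bases and gaaa, overlapping matches being merged.
Isg15: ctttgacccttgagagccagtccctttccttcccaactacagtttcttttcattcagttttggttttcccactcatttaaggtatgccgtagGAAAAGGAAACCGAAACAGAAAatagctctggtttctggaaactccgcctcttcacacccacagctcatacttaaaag
Ifit1: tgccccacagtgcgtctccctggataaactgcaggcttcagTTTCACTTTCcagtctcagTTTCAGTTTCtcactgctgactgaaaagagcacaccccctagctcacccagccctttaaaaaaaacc
Rsad2: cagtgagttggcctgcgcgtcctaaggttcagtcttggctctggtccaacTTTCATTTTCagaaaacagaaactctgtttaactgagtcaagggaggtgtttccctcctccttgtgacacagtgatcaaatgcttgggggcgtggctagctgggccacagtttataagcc
Gbp7: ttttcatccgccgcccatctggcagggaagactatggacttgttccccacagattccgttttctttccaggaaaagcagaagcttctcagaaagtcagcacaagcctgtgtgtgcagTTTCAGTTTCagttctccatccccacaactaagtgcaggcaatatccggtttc
These stretches lie at chr4:156200819-156200988 (minus strand), chr19:34640744-34640870 (plus), chr12:26456453-26456622 (minus) and chr3:142530166-142530335 (plus), outside annotated exons. Isg15 held 3 overlapping matches, Ifit1 held 2, and Rsad2 and Gbp7 held 1 each. Over windows from 250 bases before to 50 bases after the start, the letters were present in 3.44% of all 32851 promoter windows, in 3.89% of the 13072 tested genes with a window, and in 15 of the 28 interferon members with a window. They were present in 6 of the 14 such members that rose. A match describes the sequence only and shows neither binding nor use.

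Mx1, an antiviral GTPase gene that RefSeq lists as a transcribed pseudogene in the reference strain (GRCm38.p6, chr16:97447035-97462906), was at 5.19, 4.35, 6.07, 5.95 and 3.61 TPM in IF mice 1 to 5. In PBMC-hCG mice 1 to 5 it was at 9.44, 16.6, 25.1, 19.02 and 6.16 TPM. The groups did not overlap, although PBMC-hCG mouse 5 lay just above the highest IF mouse, and the log2 fold change was 1.44 ± 0.36 (SE, n = 5 per group; adjusted p = 0.0290). Ifit1, which encodes a protein that binds viral RNA, was at 24.7, 27.2, 44.9, 24.03 and 16.4 TPM in IF mice and at 47.1, 100.4, 121, 92.3 and 39.1 TPM in PBMC-hCG mice. It rose by a log2 fold change of 1.48 ± 0.36 (adjusted p = 0.0287). The groups touched, since IF mouse 3 was above PBMC-hCG mouse 5. Isg15, the ubiquitin-like modifier, was at 69.4, 72.0, 128, 89.2 and 60.8 TPM in IF mice and at 109, 182, 207, 224 and 87.5 TPM in PBMC-hCG mice, a log2 fold change of 0.90 ± 0.26 (adjusted p = 0.0363). In all 3 genes PBMC-hCG mice 2, 3 and 4 were the high ones and mice 1 and 5 were lower. For Isg15 both mice 1 and 5 lay inside the IF range of 60.8 to 128 TPM.

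Members acting at other steps of the pathway were read in turn. Among antiviral effectors, Rsad2 (viperin) rose by 1.32 on the log2 scale, Mx2 by 1.23, Oasl1 by 1.22 and Oasl2 by 1.02. Ifit3 had the largest log2 fold change of the list, 1.54, but did not pass the adjustment (adjusted p = 0.0621), with IF mouse 3 at 78.8 TPM against 19.7 to 21.1 TPM in the other IF mice. Usp18, the protease that removes ISG15 and damps interferon receptor signalling, rose by 1.02. The cytosolic RNA sensors Ddx58 (RIG-I) and Ifih1 (MDA5) rose by 0.80 and 0.73. Of the transcription factors, Irf7 rose by 0.85, whereas Stat2 (0.48, adjusted p = 0.0545) did not pass. Of the antigen-processing genes, Tap1, the peptide transporter, rose by 0.64 and Psmb8, an immunoproteasome subunit, by 0.33. The chemokine genes Cxcl9 (0.87, adjusted p = 0.110) and Cxcl10 (0.82, adjusted p = 0.166), which interferon gamma induces strongly, did not pass, and Bst2 had a log2 fold change of 0.10 (adjusted p = 0.661). Cd274 (PD-L1), an interferon-inducible checkpoint ligand outside the list, rose by 1.31 ± 0.34 (adjusted p = 0.0307), from 2.18 to 4.46 TPM in IF mice to 5.01 to 12.0 TPM in PBMC-hCG mice.

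The level of the whole list differed between mice of one group. As the median over the 36 members of log2(TPM + 0.1) minus the IF mean, IF mice 1 to 5 stood at -0.01, -0.04, 0.48, -0.05 and -0.40, and PBMC-hCG mice 1 to 5 at 0.32, 0.97, 0.97, 0.95 and 0.35. IF mouse 3 was thus above PBMC-hCG mice 1 and 5 in this measure. Without IF mouse 3, 28 of the 36 rose, without PBMC-hCG mouse 1, 24, without IF mouse 1, 14, and without PBMC-hCG mouse 5, 1. Leaving out IF mouse 2, 4 or 5 or PBMC-hCG mouse 2, 3 or 4 left 0 past the adjustment by limma, with 25 to 30 at an unadjusted p below 0.05 and medians of 0.61 to 0.71. Against the PBMC group, 26 of the 36 members were higher at an unadjusted p below 0.05 (8.66% of all tested genes were), 0 were lower and 0 passed the adjustment by limma, and the median log2 fold change was 0.62. PBMC against IF gave 0 members at an unadjusted p below 0.05 by limma (6.79% of all tested genes), with a median of 0.08. In the per-mouse measure PBMC mice 1 to 5 stood at -0.15, 0.19, -0.19, 0.68 and -0.20. PBMC mouse 4 was thus above PBMC-hCG mice 1 and 5. Against the control group 34 of the 36 were higher after adjustment (20.2% of all tested genes were), with a median of 1.15. The IF group itself was above the control group after adjustment for 14 members (13.4% of all tested genes), with a median of 0.52.

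**Figure D1:**
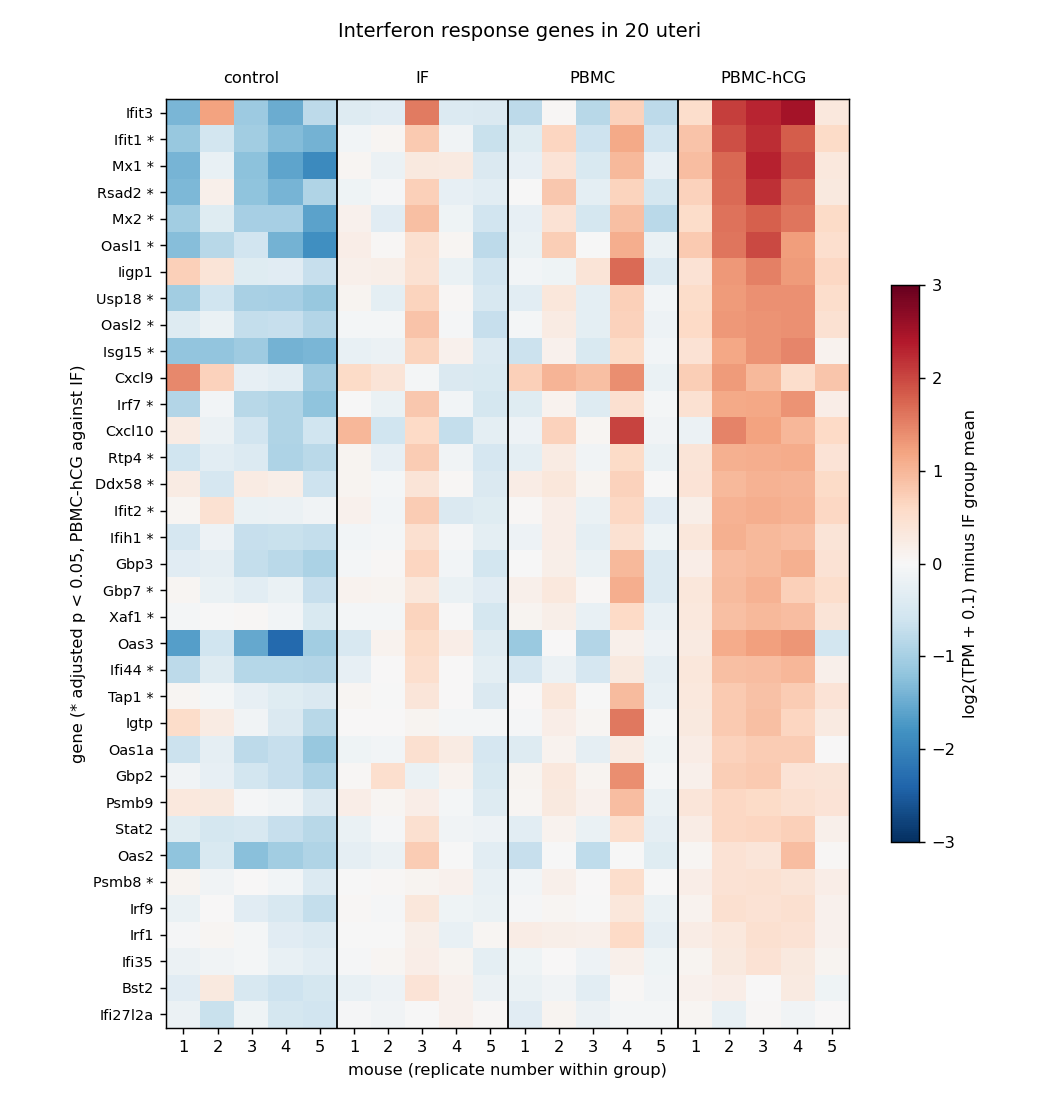
Levels of 35 of the 36 interferon response genes (rows, 1 being not reported here, ordered by the log2 fold change of PBMC-hCG against IF) in 20 uteri (columns, grouped by treatment). Colour gives log2(TPM + 0.1) minus the mean of the 5 IF mice, and an asterisk marks the 18 genes with adjusted p below 0.05 in PBMC-hCG against IF. PBMC-hCG mice 2, 3 and 4 are red over most rows, mice 1 and 5 are paler, and IF mouse 3 and PBMC mouse 4 are redder than the rest of their groups.

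Genes of the early estrogen response were lower in the PBMC-hCG group. These are genes induced in the rodent uterus within hours of estradiol. Inhbb, Gadd45g, Wnt4, Ramp3, Vegfa and Adamts1 of this list are also among the genes for which the study designed PCR primers. Like the other lists, it was chosen with earlier results of these data known, so its counts are not independent evidence of a direction. Of 25 members tested, 14 fell and 0 rose, against 5.99% of all tested genes that fell. At an unadjusted p below 0.05, 18 were lower (14.3% of all tested genes), and the median log2 fold change was -0.72. Inhbb, which encodes the activin B subunit, was at 376, 503, 423, 669.7 and 846 TPM in IF mice 1 to 5 and at 398, 74.8, 58.4, 167 and 135 TPM in PBMC-hCG mice 1 to 5. It fell by 2.03 ± 0.50 on the log2 scale (adjusted p = 0.0287), and PBMC-hCG mouse 1 was the single overlap, above IF mouse 1. Gadd45g, a stress and growth-arrest gene, was at 314, 491, 384, 458 and 821 TPM in IF mice and at 247, 97.4, 76.0, 176 and 138 TPM in PBMC-hCG mice. Here the groups did not overlap, and the gene fell by 1.79 ± 0.36 (adjusted p = 0.0258). Cebpb, a transcription factor needed for the decidual response, was at 82.3, 126, 78.2, 102 and 176 TPM in IF mice and at 66.2, 32.2, 24.4, 36.2 and 35.9 TPM in PBMC-hCG mice, again without overlap, with a log2 fold change of -1.55 ± 0.33 (adjusted p = 0.0258).

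Signalling genes of the same list fell with them. Wnt4, a secreted ligand of decidualization, had a log2 fold change of -1.39, and so did Ramp3, the receptor activity-modifying protein of adrenomedullin signalling. The angiogenic factor Vegfa was at -0.81, the AP-1 subunit Fosl2 at -0.90 and the protease Adamts1 at -0.91. Tnfaip2 (-1.25) and Stat3 (-0.43), the transducer of LIF, also fell. Fos and Egr1, immediate early members, had log2 fold changes of -0.20 (adjusted p = 0.829) and 0.25 (adjusted p = 0.772) and overlapped widely, and Igf1, the stromal growth factor, was at 0.26 (adjusted p = 0.251). Without PBMC-hCG mouse 1, 17 of the 25 fell and the median was -0.87. Without IF mouse 2, 4 or 5 or any of PBMC-hCG mice 2 to 5, 0 passed the adjustment by limma, 17 or 18 were lower at an unadjusted p below 0.05, and the median was -0.61 without IF mouse 5. Of 30 tested genes of the immediate early list, 4 fell and 0 rose, beside 5.99% and 7.61% of all tested genes. At an unadjusted p below 0.05, 11 were lower (14.3% of all tested genes) and 0 higher, and the median was -0.36. With 1 mouse left out, 0 to 8 of them fell by limma. Among 17 tested members of the late estrogen response, 3 fell and 1 rose, beside 5.99% and 7.61% of all tested genes. Padi1, a peptidylarginine deiminase, and Lcn2, a secreted siderophore-binding protein, fell by 1.43 and 1.30, and complement C3 rose by 0.61 ± 0.16 (adjusted p = 0.0307), from 199 to 252 TPM in IF mice to 258 to 431 TPM in PBMC-hCG mice.

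The IF levels of several of these genes lay far above the control levels. Inhbb was 5.24 higher in IF than in control uteri on the log2 scale and remained 3.20 higher in PBMC-hCG than in control uteri. For Gadd45g the corresponding values were 3.04 and 1.24, and for Ramp3 3.20 and 1.81, all past the adjustment. Cebpb was 1.89 higher in IF than in control (adjusted p = 0.00038), and the PBMC-hCG value against control was 0.34 (adjusted p = 0.450). Vegfa was 1.03 higher in IF than in control (adjusted p = 0.000443) and 0.23 higher in PBMC-hCG (adjusted p = 0.359). Over the 25 genes the median log2 fold change was 0.93 for IF against control and 0.20 for PBMC-hCG against control. These comparisons share mice with the comparison above. Against the PBMC group, 9 of the 25 were lower at an unadjusted p below 0.05 (7.51% of all tested genes were) and 0 passed the adjustment by limma, with a median of -0.35. Among them were Wnt4 (-1.33, unadjusted p = 0.0048) and Hbegf (-1.05, unadjusted p = 0.0012).

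**Figure D2:**
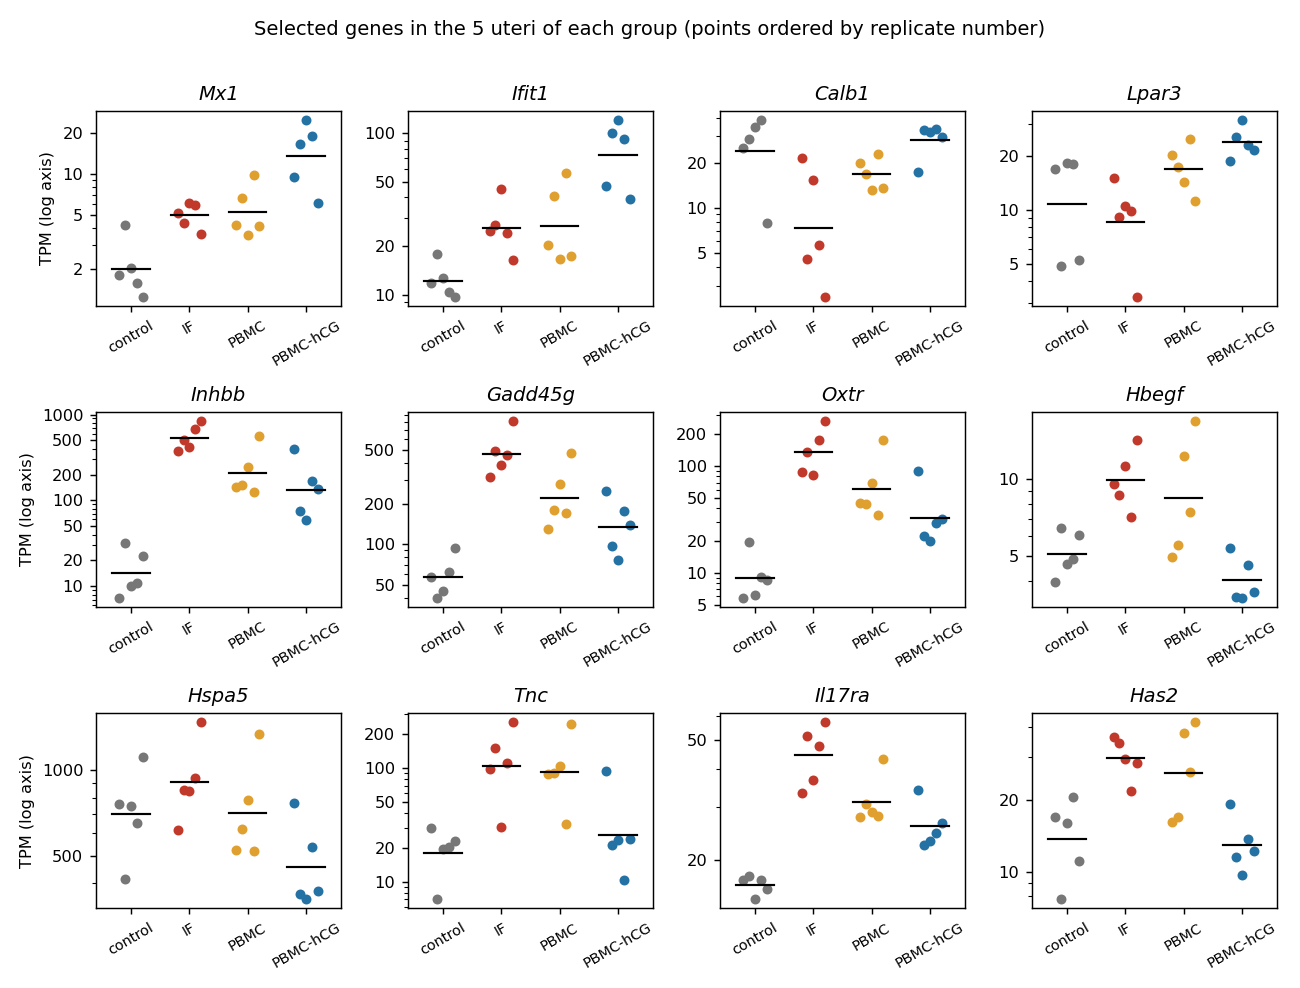
TPM on a log axis of 12 genes in the 5 uteri of each of 4 groups, with points ordered by replicate number from left to right and the bar at the mean of log2(TPM + 0.1) brought back to TPM. In PBMC-hCG uteri Mx1 and Lpar3 lie above all IF uteri and Gadd45g, Hbegf and Has2 below them, while for Inhbb, Oxtr, Hspa5 and Tnc the leftmost PBMC-hCG point, mouse 1, falls in the IF range.

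Of 6 tested receptor genes for steroid and gonadotropin hormones, 1 rose and 0 fell, beside 7.61% and 5.99% of all tested genes. At an unadjusted p below 0.05, 4 were higher and 1 lower (20.7% and 14.3% of all tested genes). Esr1, the estrogen receptor, was at 139 to 165 TPM in IF mice and at 154 to 166 TPM in PBMC-hCG mice, with a log2 fold change of 0.06 (adjusted p = 0.475). Pgr, the progesterone receptor and itself an estrogen-induced gene, was at 136 to 168 TPM and at 83.8 to 151 TPM, a log2 fold change of -0.42 that did not pass (adjusted p = 0.0514). Nr3c1, the glucocorticoid receptor, was at 24.4, 23.4, 27.4, 23.8 and 19.9 TPM in IF mice and at 28.6, 33.9, 32.2, 31.6 and 29.2 TPM in PBMC-hCG mice. It rose by 0.39 ± 0.08 (adjusted p = 0.0258) with no overlap. Of 24 genes induced by glucocorticoids, 4 rose and 5 fell, beside 7.61% and 5.99% of all tested genes, with a median of 0.01. Tsc22d3 (GILZ), Zbtb16 (PLZF) and the cell-cycle inhibitor Cdkn1c rose by 0.77, 0.85 and 0.60. Sgk1, a kinase that regulates epithelial sodium transport, fell by 1.06. Fkbp5 had a log2 fold change of -0.36 (adjusted p = 0.0934).

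Of 21 genes that depend on the progesterone receptor, 3 rose and 2 fell, where 7.61% of all tested genes rose and 5.99% fell, and the median was 0.01. Hoxa10 and Nr2f2 (COUP-TFII), stromal transcription factors, rose by 0.42 and 0.47. The activin subunit Inhba and its antagonist Fst fell by 1.41 and 1.39. Ihh, the epithelial hedgehog ligand, was at -1.10 (adjusted p = 0.178). Against control, 8 of the 21 were lower in PBMC-hCG uteri after adjustment (11.6% of all tested genes were). Of these, Il13ra2 had a log2 fold change of -4.20 in IF and of -3.65 in PBMC-hCG uteri, and Zbtb16, which rose against IF, was at -3.95 and -3.10.

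Of 26 genes with known roles in implantation, 5 rose and 4 fell (7.61% and 5.99% of all tested genes), with a median of 0.10. Calb1, the calcium buffer calbindin of uterine epithelium, was at 21.4, 4.51, 15.2, 5.58 and 2.53 TPM in IF mice and at 17.4, 33.1, 31.9, 33.4 and 29.8 TPM in PBMC-hCG mice. It rose by 1.94 ± 0.48 (adjusted p = 0.0287), with PBMC-hCG mouse 1 below IF mouse 1. Lpar3, the lysophosphatidic acid receptor whose loss delays implantation and crowds embryos, was at 15.0, 9.08, 10.4, 9.80 and 3.27 TPM in IF mice and at 18.8, 25.4, 31.8, 22.9 and 21.5 TPM in PBMC-hCG mice. It rose by 1.46 ± 0.40 (adjusted p = 0.0334) with no overlap. Capn6 and Map2k6 rose by 0.94 and 0.59. Hbegf, the ligand through which the luminal epithelium and blastocyst signal to each other, fell from 9.63, 8.66, 11.3, 7.15 and 14.3 TPM to 5.37, 3.45, 3.43, 4.62 and 3.62 TPM, a log2 fold change of -1.28 ± 0.28 (adjusted p = 0.0258) with no overlap.

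The remaining implantation genes included both tested and untested ones. Lif, the cytokine required for attachment, was at 6.94, 5.75, 2.30, 4.91 and 4.72 TPM in IF mice and at 3.31, 0.622, 1.66, 1.86 and 2.72 TPM in PBMC-hCG mice. Its log2 fold change of -1.33 ± 0.66 did not pass (adjusted p = 0.158), and its spread was wide in both groups. Msx1, a homeobox gene that is silenced at attachment, was at 0.54 (adjusted p = 0.0623). Ereg, an EGF family ligand of the receptive uterus, was not tested because of zeros. It was listed at 0.176, 2.27, 0.0199, 0.644 and 2.28 TPM in IF mice and at 0 in all 5 PBMC-hCG mice. Over all genes, 4 were above 0 in every IF mouse and at 0 in every PBMC-hCG mouse, and 5 the other way round.

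Of 38 contraction genes tested, 3 fell and 5 rose, beside 5.99% and 7.61% of all tested genes, with a median of 0.06. Myometrial markers summed to 7204 to 8787 TPM in IF mice and to 6001 to 7475 TPM in PBMC-hCG mice, and their part in the values of these genes was not tested. Oxtr, the oxytocin receptor, was at 87.0, 136, 81.9, 175 and 265 TPM in IF mice and at 89.1, 22.2, 19.9, 29.2 and 31.8 TPM in PBMC-hCG mice. It fell by 2.05 ± 0.47 (adjusted p = 0.0277), and PBMC-hCG mouse 1 was above 2 of the 5 IF mice. Ptgs2, the inducible prostaglandin synthase, fell by 1.87 ± 0.55 (adjusted p = 0.0385) at low levels, from 1.21 to 5.81 TPM to 0.432 to 1.90 TPM. Gja1, the gap junction protein connexin 43, fell by 1.12. Ptgfr, the receptor for prostaglandin F2 alpha, was at 4.51, 4.16, 5.02, 3.42 and 3.23 TPM in IF mice and at 4.79, 10.7, 13.8, 9.77 and 10.004 TPM in PBMC-hCG mice, and rose by 1.19 ± 0.31 (adjusted p = 0.0307). Here too PBMC-hCG mouse 1 was the one inside the IF range. Ano1, a calcium-activated chloride channel, rose by 0.52 with no overlap.

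Among 38 interleukin and TNF family ligands and receptors, 5 rose and 5 fell. The shares of all tested genes, for this list and the next ones, were 7.61% and 5.99%. Tnfrsf12a, the receptor of the cytokine TWEAK, was at 41.1, 37.6, 39.4, 34.7 and 89.7 TPM in IF mice and at 22.9, 10.3, 9.04, 9.38 and 7.52 TPM in PBMC-hCG mice, and fell by 2.05 ± 0.45 (adjusted p = 0.0258) with no overlap. Il17ra, the shared subunit of IL-17 receptors, was at 33.4, 51.7, 36.8, 47.9 and 57.3 TPM and at 34.1, 22.4, 23.2, 24.6 and 26.5 TPM, and fell by 0.78 ± 0.15 (adjusted p = 0.0258), with PBMC-hCG mouse 1 inside the IF range. Il4ra fell by 0.98 and Il1r2, a decoy receptor of IL-1, by 1.78. Of 38 chemokine and chemokine receptor genes, 9 were lower and 3 higher at an unadjusted p below 0.05 (14.3% and 20.7% of all tested genes). After adjustment, 4 fell and 0 rose. The 4 that fell were Ccl7 (-1.80), the CXCL12 scavenger Ackr3 (-1.01), the eosinophil attractant Ccl11 (-0.92) and Cxcl14 (-0.91). The medians of both lists, 0.03 and -0.01, were close to that of all tested genes. Of 26 NF-kappaB and TNF targets 4 fell, among them Nfkbia (-0.38), and 1 rose. The riser was Cd83, a surface protein of activated antigen-presenting cells, by 0.95 ± 0.21 (adjusted p = 0.0264), from 14.3 to 32.1 TPM to 36.4 to 49.95 TPM.

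Of 45 growth factor ligands and receptors, 9 fell and 3 rose, and of 45 matrix and hyaluronan genes 6 fell and 2 rose, beside 5.99% and 7.61% of all tested genes. Their medians, -0.02 and -0.09, lay within the quartiles of all tested genes, and 21 growth factor members were higher and 24 lower in mean. Nrg1, the ligand of ERBB3 and ERBB4, fell by 1.42. Has1 and Has2, hyaluronan synthases, fell by 2.82 and 1.19. Has2 was at 36.6, 34.3, 29.6, 21.7 and 28.6 TPM in IF mice and at 19.2, 11.6, 9.77, 13.8 and 12.2 TPM in PBMC-hCG mice, with no overlap. The matrix glycoprotein Tnc (tenascin C) was at 98.6, 149, 30.6, 110.3 and 254 TPM and at 94.2, 21.1, 23.2, 10.4 and 23.6 TPM. It fell by 2.02 ± 0.60 (adjusted p = 0.0393), with IF mouse 3 and PBMC-hCG mouse 1 in the range of the other group. The versican-cleaving protease Adamts4 fell by 1.33, and Plau, the urokinase plasminogen activator, by 1.25 with no overlap. Of the 19 genes for which the study designed PCR primers, 17 fell and 1 (Nr3c1) rose. That list was chosen by the study on these same samples and is not independent evidence of a direction.

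Genes of the unfolded protein response, which adjusts chaperones and folding enzymes to the load of the endoplasmic reticulum, were lower in the PBMC-hCG group. Of 24 tested, 11 fell and 0 rose after adjustment (5.99% of all genes fell). At an unadjusted p below 0.05, 19 were lower (14.3% of all tested genes), and the median was -0.56. Many such genes carry the endoplasmic reticulum stress element, for which ccaat, any 9 bases and ccacg were searched on both strands, with capitals marking the match. It was present in 0.119% of all promoter windows, in 0.161% of tested genes and in 7 of the 21 members with a window (33.3%). Of the 9 such members that fell, 3 carried it (33.3%). Here too a match describes the sequence only and shows neither binding nor use. The matches of 3 members that fell are shown with their surroundings, from the same RefSeq table and outside annotated exons, except that the Hspa5 match lies within the first exon of a longer GENCODE transcript and is printed with 5 flanking bases on each side.
Hspa5: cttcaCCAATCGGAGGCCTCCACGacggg
Pdia6: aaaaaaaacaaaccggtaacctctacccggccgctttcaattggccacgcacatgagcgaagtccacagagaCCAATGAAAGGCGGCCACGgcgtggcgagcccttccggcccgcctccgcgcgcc
Calr: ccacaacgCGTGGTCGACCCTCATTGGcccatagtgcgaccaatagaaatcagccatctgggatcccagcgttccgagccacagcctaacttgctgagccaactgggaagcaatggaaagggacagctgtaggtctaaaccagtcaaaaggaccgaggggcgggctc
They lie at chr2:34772020-34772048 (plus strand), chr12:17266419-17266544 (plus) and chr8:84846935-84847101 (minus).

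Hspa5 (BiP), the main chaperone of the endoplasmic reticulum, was at 618, 849, 841, 934 and 1471 TPM in IF mice and at 768, 367, 352, 536 and 377 TPM in PBMC-hCG mice. It fell by 0.98 ± 0.30 (adjusted p = 0.0402). PBMC-hCG mouse 1 was above IF mouse 1 and the other 4 were below all IF mice. The co-chaperone Hyou1 and the secreted factor Manf fell by 0.93 and 0.92, the disulfide isomerase Pdia6 by 0.60 and the lectin chaperone Calr by 0.58. Of the transcription factors of the response, Atf4 fell by 0.56 ± 0.14 (adjusted p = 0.0287) with no overlap and Xbp1 by 0.48, while Ddit3 (CHOP), which promotes cell death, was at 0.31 (adjusted p = 0.0939). Without PBMC-hCG mouse 1, 17 of the 24 fell, with a median of -0.63. In 7 of the 10 cases with 1 mouse left out (IF mice 2, 4 and 5 and PBMC-hCG mice 2 to 5) 0 fell by limma, 14 to 21 were lower at an unadjusted p below 0.05, and the median was -0.46 without IF mouse 5. Against control uteri, Hspa5 was at 0.37 in IF (adjusted p = 0.420) and at -0.62 in PBMC-hCG (adjusted p = 0.119). After adjustment, 6 of the 24 were higher in IF than in control (13.4% of all tested genes), with a median of 0.25. In PBMC-hCG against control, 6 were lower and 2 higher after adjustment (11.6% and 20.2% of all tested genes), with a median of -0.32. PBMC against IF gave a median of -0.27, with 23 members lower and 1 higher in mean and 0 past the adjustment by limma. Against the PBMC group the median was -0.26, with 0 past the adjustment by limma.

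**Figure D3:**
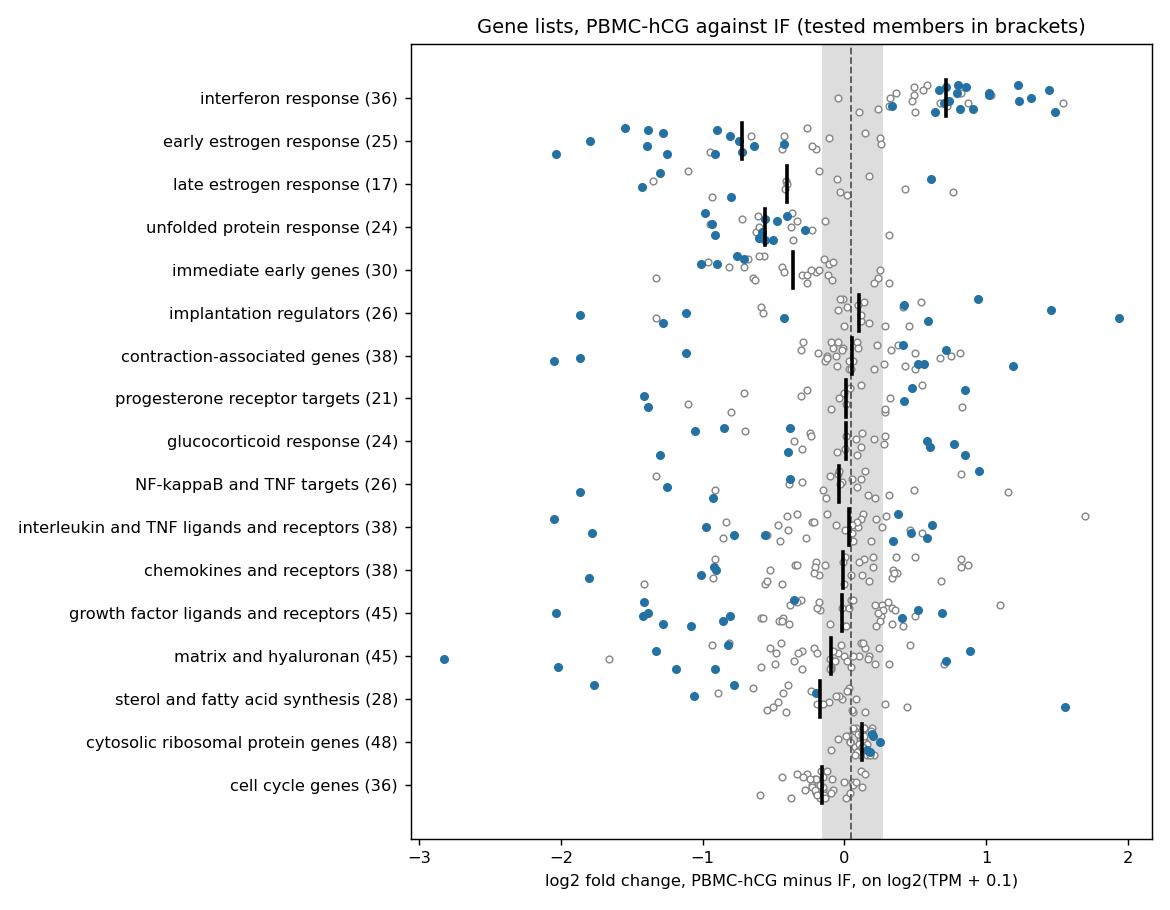
Log2 fold changes of PBMC-hCG against IF, on log2(TPM + 0.1), for the tested members of 17 gene lists (number tested in brackets). Filled points had adjusted p below 0.05, black bars are list medians, the dashed line is the median of all 18706 tested genes and the grey band their quartiles. The median of the interferon list lies to the right of the band. The medians of the early estrogen, unfolded protein response, late estrogen and immediate early lists lie to its left. Those of the sterol and fatty acid synthesis (-0.17) and cell cycle (-0.16) lists lie just beyond its left edge, and those of the other lists lie within it.

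Small nucleolar RNA (snoRNA) genes were lower in the PBMC-hCG group. This class was examined after its values were seen. SnoRNAs guide the chemical modification of ribosomal RNA, and in mammals most are cut from introns of host genes. The C/D box class is recognised by a C box near the 5′ end and a D box near the 3′ end. Of the 192 genes of this RefSeq class that were tested, 76 fell and 0 rose after adjustment (5.99% of all genes fell). At an unadjusted p below 0.05, 108 were lower and 1 was higher (14.3% and 20.7% of all tested genes). The median log2 fold change was -0.75. The sequences of the 4 C/D members with the largest falls, among 9 that averaged 1 TPM or more and did not overlap between groups, are given below from GENCODE vM21, with the C box core tgatga and the D box ctga in capitals.
Snord47: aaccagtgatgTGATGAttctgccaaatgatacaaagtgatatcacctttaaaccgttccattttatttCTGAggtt
Snord69: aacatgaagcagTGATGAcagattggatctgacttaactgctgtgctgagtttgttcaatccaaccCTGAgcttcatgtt
Snord14e: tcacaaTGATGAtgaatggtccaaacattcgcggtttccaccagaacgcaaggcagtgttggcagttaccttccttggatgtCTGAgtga
Snord14d: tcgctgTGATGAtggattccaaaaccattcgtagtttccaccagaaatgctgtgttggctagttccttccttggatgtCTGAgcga
They lie within Gas5 at chr1:161038082-161038158 (plus strand), within Gnl3 at chr14:31014287-31014366 (minus), and, for the last 2, within the heat shock gene Hspa8 at chr9:40804748-40804837 and chr9:40803995-40804080 (plus).

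Snord47 was at 3.86, 5.49, 3.76, 12.7 and 18.4 TPM in IF mice and at 2.66, 0.845, 1.02, 0.648 and 2.72 TPM in PBMC-hCG mice, and fell by 2.34 ± 0.52 (adjusted p = 0.0264). Snord69 was at 15.4, 15.4, 11.8, 15.4 and 17.7 TPM and at 7.66, 2.37, 3.42, 5.09 and 7.64 TPM, and fell by 1.64 ± 0.31 (adjusted p = 0.0258). Snord14e and Snord14d, which share a host, fell by 1.63 and 1.62. The fall was seen in both main classes, with a median of -0.85 over 55 Snord genes (22 fell) and of -0.71 over 31 Snora genes (12 fell). The genes that contain them were read beside them. For 78 snoRNA genes a tested gene on the same strand contained them, and their median was -0.79, with 32 that fell. The 59 different host genes had a median of 0.09, with 5 that rose and 10 that fell. Gas5, for example, was at 0.16 (adjusted p = 0.231), whereas Gnl3 fell by 0.96 (adjusted p = 0.0258).

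The summed level of the 192 genes was 1853 to 2763 TPM in IF mice (median 2318) and 1104 to 1843 TPM in PBMC-hCG mice (median 1190), with PBMC-hCG mouse 1 the highest of its group. Without that mouse 88 of the 192 fell. By limma 0 fell without IF mouse 5 or PBMC-hCG mouse 2 or 3, 2 to 4 without IF mouse 2 or 4 or PBMC-hCG mouse 4, and 11 without PBMC-hCG mouse 5, while 95 to 112 were lower at an unadjusted p below 0.05 in every case. Against the PBMC group the median was -0.45, with 1 lower after adjustment (0.00535% of all tested genes). At an unadjusted p below 0.05, 64 were lower there (7.51% of all tested genes) and 0 higher. Against the control group the median was -0.70, with 87 lower after adjustment (11.6% of all tested genes). IF against control gave a median of -0.01. PBMC against IF gave a median of -0.23, with 0 past the adjustment by limma. In that comparison 18 were lower and 0 higher at an unadjusted p below 0.05, beside 6.79% of all tested genes in either direction. The libraries were made from polyadenylated RNA with a stranded kit, and mature snoRNAs carry no poly(A) tail, so whether these values come from mature snoRNA, unspliced host RNA or other transcripts of the locus was not tested.

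**Figure D4:**
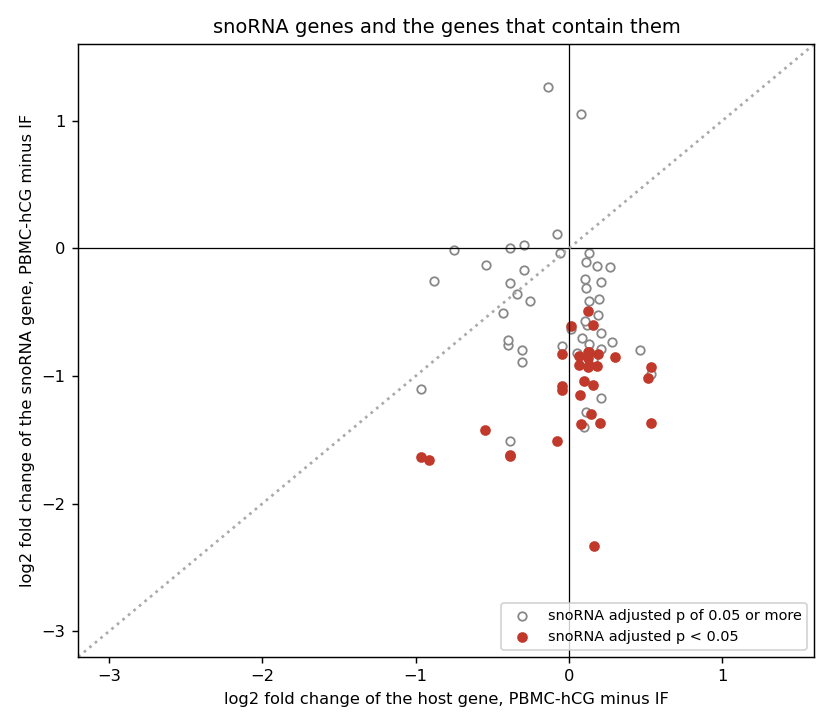
Log2 fold change of PBMC-hCG against IF for 78 snoRNA genes (vertical axis) plotted against that of the gene that contains each on the same strand (horizontal axis, 59 host genes, some shared by several points). Filled points had adjusted p below 0.05 for the snoRNA, and the dotted line marks equal change. Most points lie below 0 on the vertical axis while the host genes lie on both sides of 0.

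Outside these groups, the largest falls included Nppc, the precursor of C-type natriuretic peptide, which was at 21.3, 37.9, 15.5, 32.9 and 44.9 TPM in IF mice and at 11.9, 3.38, 2.65, 4.86 and 3.05 TPM in PBMC-hCG mice. It fell by 2.67 ± 0.53 (adjusted p = 0.0258). P2ry2, a receptor for extracellular ATP and UTP, was at 4.74, 6.95, 8.95, 9.39 and 15.8 TPM and at 3.99, 1.85, 1.41, 2.98 and 1.43 TPM, and fell by 1.94 ± 0.37 (adjusted p = 0.0258). Neither gene overlapped between groups. Among the largest rises were Mab21l4 (1.89 ± 0.34, adjusted p = 0.0258), at 0.105 to 0.741 TPM in IF mice and at 1.33 to 2.24 TPM in PBMC-hCG mice, and the aquaporin gene Aqp11 (1.46 ± 0.30, adjusted p = 0.0258), at 3.58 to 11.4 TPM and at 15.6 to 31.3 TPM. The meiotic cohesin gene Rec8 and the phospholipase gene Plch2 rose by 1.39 and 1.36, and neither overlapped. Ahrr, the repressor of the aryl hydrocarbon receptor, rose by 0.96.

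The 36 cell cycle genes had 0 changed by limma, 0 at an unadjusted p below 0.05 and a median of -0.16. The 13 tested mitochondrially encoded genes had 0 changed by limma, 2 higher at an unadjusted p below 0.05 and a median of 0.08. Of 48 cytosolic ribosomal protein genes, 5 rose by 0.16 to 0.25 and 0 fell, beside 7.61% and 5.99% of all tested genes, and 24 were higher at an unadjusted p below 0.05 (20.7% of all tested genes), with a median of 0.12. The 24 became 5 after centring on library medians and 12 after quantile normalization, with medians of 0.06 and 0.05. The reference gene Gapdh was at 424 to 696 TPM in IF mice and at 406 to 528 TPM in PBMC-hCG mice, a log2 fold change of -0.28 (adjusted p = 0.166). Of 12 reference genes, 1 fell and 0 rose, beside 5.99% and 7.61% of all tested genes. At an unadjusted p below 0.05, 4 were lower and 1 higher (14.3% and 20.7% of all tested genes). Their median was -0.19, where the lower quartile of all tested genes was -0.15.

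Markers of the cell types of the uterus were checked. Markers of epithelium, stroma, myometrium and endothelium were present in every library of both groups. Of these, 1 of 18 epithelial, 3 of 14 stromal, 0 of 13 myometrial and 1 of 15 endothelial markers rose, beside 7.61% of all tested genes, and 0 fell. At an unadjusted p below 0.05, 4 epithelial, 6 stromal, 0 myometrial and 5 endothelial markers were higher (20.7% of all tested genes). In the same order, 3, 0, 3 and 2 were lower (14.3% of all tested genes). The median sum of epithelial markers was 3009 TPM in IF mice and 4230 TPM in PBMC-hCG mice, with ranges of 2525 to 6605 and 3328 to 6173 TPM that overlapped. That of myometrial markers was 7868 and 6758 TPM, and the part of these sums in the other results was not tested. None of the 12 T cell or 13 NK cell markers tested passed the adjustment, and 0 and 2 of them were at an unadjusted p below 0.05. The summed T cell markers were at 65.3 to 116 TPM in IF mice and at 79.8 to 115 TPM in PBMC-hCG mice, so the ranges overlapped. Macrophage markers summed to 1458 to 1634 TPM and 1443 to 1993 TPM, with 1 of 17 rising. Red cell markers were lower in the PBMC-hCG group, where they summed to 342 to 879 TPM (median 405) against 641 to 1804 TPM (median 1084) in IF mice. Of 6 tested, 2 fell, Hba-a2 by 1.08 and Hbb-bs by 1.04. B and plasma cell markers summed to 300.2 to 3432 TPM in IF mice and to 285 to 934 TPM in PBMC-hCG mice, with 1 of 11 falling and 5 higher and 6 lower in mean. The variable immunoglobulin gene Igkv5-43, outside that list, was at 0.396 to 162 TPM in IF mice and at 0.562 to 2.05 TPM in PBMC-hCG mice, and did not pass (adjusted p = 0.0815). In whole uterus, fewer cells of a type and less RNA per cell cannot be told apart. Whether the difference in blood RNA had a part in the other results was not tested.

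The direct comparison of PBMC-hCG with PBMC uteri asks which values depended on hCG in the culture. There 2 of 18706 genes passed the adjustment by limma (0.0107%), and 3024 genes (16.2%) had an unadjusted p below 0.05. By a fold change of at least 2 and an unadjusted p below 0.05, 167 genes (0.893%) were called, and 432 (2.31%) were called against IF by the same rule, 1.09% of tested genes being higher and 1.22% lower. Of genes averaging 1 TPM or more, those called against both groups numbered 78, of which 55 were lower and 23 higher than in PBMC. Both comparisons use the same PBMC-hCG mice, so a call in both is not independent evidence. By that rule the largest rises over PBMC included Ifit3b (2.01) and Ifit3 (1.88), for which the values against IF were 1.59 and 1.54. Ifit3 passed the adjustment by limma against neither group. For Inhbb, Gadd45g and Oxtr the log2 fold changes against PBMC were -0.65, -0.71 and -0.91, with adjusted p of 0.482, 0.320 and 0.329, and the PBMC medians of 152, 178 and 44.6 TPM lay between those of the IF and PBMC-hCG groups.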

How the data were processed

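Poly(A) RNA of 1 uterine horn per mouse was sequenced with a stranded kit, from 5 mice in each of 4 groups. The deposited values are TPM (transcript levels scaled by length and library total), which the authors made from their reads. Reads were trimmed with Trimmomatic, aligned to mm10 with HISAT2 and assembled into transcripts with StringTie, as the study's methods and the submitters' processing notes give it, with versions not given in the sources used here. TPM is scaled to a fixed total, so depth is unknown and a change in a few abundant genes moves the others. Because TPM values are not counts, a count model was not used, and limma 3.58.1 in R 4.3.3 was run on log2(TPM + 0.1). Fold changes on this scale understate the change of low genes. Genes above 0 TPM in all 20 libraries entered 1 fit of the 4 groups with a variance trend, without a block, and p-values were two-sided and adjusted by Benjamini-Hochberg over all genes tested. Samples were grouped by their labels, nothing in which says more of the replicates than that they are different mice. P-values measure the spread between these mice.

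Gene lists were written from general knowledge of the tissue, and the members and lists were chosen with earlier results of these data known. Named genes were the 10 largest rises and falls past the adjustment whose groups did not overlap and that averaged 1 TPM or more, the 2 smallest p of each list, marked key members and genes with PCR primers in the study, and the 3 largest changes each way against PBMC among genes called in both comparisons. Not all of these are printed, and some results are not reported here. The following were named after their values were seen: Isg15, Rsad2, Gbp7, Mx2, Oasl1, Oasl2, Ddx58, Ifih1, Irf7, Stat2, Tap1, Psmb8, Cxcl9, Cxcl10, Bst2, Cd274, Cebpb, Igf1, Zbtb16, Hoxa10, Calb1, Map2k6, Ereg, Ptgs2, Gja1, Il1r2, Ccl7, Pdia6, Calr, Hyou1, Manf, Ddit3, Ahrr, Gas5, Gnl3, Hspa8 and the snoRNA genes other than Snord47. Promoters came from RefSeq (GRCm38.p6) and snoRNA positions from GENCODE vM21. Alternatives were the pseudocount, the filter, the scaling, the samples in the fit, the variance trend, array weights, the replicate block, the fold threshold and leaving out each mouse. Tables were handled with pandas 2.3.3 and figures drawn with matplotlib 3.10.9.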

Additional observations from a re-analysis of the deposited data

Results flagged for a closer look

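Of 212 groups of 5 mice, 28 held a mouse whose gap to the nearest of the others was above 0.71 of the group's range, Dixon's 95% limit for 5 samples. About 1 in 20 groups would be marked by chance if values were normally spread, and the genes are not independent of each other. The gaps were taken on TPM, not on the log scale of the tests. The share of groups marked by chance on that scale is not known. In PBMC-hCG mouse 1 the values that stood apart included Cebpb at 66.2 TPM (next mouse 36.2), Wnt4 at 23.3 TPM (next mouse 7.79), Ramp3 at 294 TPM (next mouse 108) and Tnfaip2 at 22.4 TPM (next mouse 15.0). The same mouse had Oxtr at 89.1 TPM (next mouse 31.8), Tnc at 94.2 TPM (next mouse 23.6), Calb1 at 17.4 TPM (next mouse 29.8) and Ptgs2 at 1.90 TPM (next mouse 0.814). The same mouse had Gja1 at 212 TPM (next mouse 106), Tnfrsf12a at 22.9 TPM (next mouse 10.3), Il1r2 at 13.4 TPM (next mouse 3.88) and Ackr3 at 121 TPM (next mouse 66.8). The same mouse had Ccl11 at 69.6 TPM (next mouse 44.7), Nrg1 at 12.3 TPM (next mouse 6.20), Adamts4 at 38.0 TPM (next mouse 17.1) and Plau at 38.9 TPM (next mouse 27.6). The same mouse had Gnl3 at 50.1 TPM (next mouse 30.4), Hspa8 at 1722 TPM (next mouse 1338), Nppc at 11.9 TPM (next mouse 4.86) and Plch2 at 1.19 TPM (next mouse 1.70). In IF mouse 3 the values that stood apart included Rsad2 at 18.6 TPM (next mouse 11.04), Ifit3 at 78.8 TPM (next mouse 21.1), Ifih1 at 15.2 TPM (next mouse 10.6) and Irf7 at 100.04 TPM (next mouse 56.7). The same mouse had Stat2 at 46.9 TPM (next mouse 33.0) and Ifit3b at 44.8 TPM (next mouse 15.1). In IF mouse 5 the values that stood apart included Tnfrsf12a at 89.7 TPM (next mouse 41.1) and Cxcl14 at 351 TPM (next mouse 209). The flags were spread over 3 of the 10 mice, and what set these mice apart was not tested.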

How the results depend on the processing

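Against IF, 432 genes were called by a fold change of at least 2 and an unadjusted p below 0.05, 204 higher and 228 lower. This became 192 with a pseudocount of 1, 804 with no filter on low values and 1773 at a fold change of 1.5. Scaling moved the split to 124 higher and 268 lower after quantile normalization and to 154 and 269 after centring on library medians, and a pseudocount of 0.01 gave 328 and 258. Leaving out 1 mouse gave 268 (without IF mouse 5) to 680 (without IF mouse 3), with 649 without PBMC-hCG mouse 1. The 2544 genes past the adjustment became 812 with no filter, 8078 with array weights, and 0 (without IF mouse 5 or PBMC-hCG mouse 3) to 5061 (without IF mouse 3) when 1 mouse was left out. They were 1 without PBMC-hCG mouse 2, 8 without IF mouse 2, 14 without IF mouse 4, 18 without PBMC-hCG mouse 4, 34 without PBMC-hCG mouse 5 and 4166 without PBMC-hCG mouse 1. Centring changed their split to 1054 higher and 1620 lower. Against PBMC, 167 called genes became 68 with a pseudocount of 1, 495 with no filter, 748 at a fold change of 1.5, and 105 (without PBMC mouse 5) to 288 (without PBMC-hCG mouse 1), with 264 without PBMC mouse 4. Against control, 887 became 477, 1435 and 2775 in the same order, and quantile normalization and centring gave splits of 394 to 482 and 411 to 459. The cause of these shifts was not tested. For genes named in the text, 3 changes of direction occurred, none past the adjustment. Esr1 was at -0.000713 after centring, Egr1 ranged from -0.053 (without PBMC-hCG mouse 2) to 0.61 (without PBMC-hCG mouse 3), and Fos from -0.45 (without PBMC-hCG mouse 2) to 0.18 (without PBMC-hCG mouse 3).

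With the replicate number as a replicate block, 433 genes were called and 3215 passed the adjustment against IF, 173 were called against PBMC and 887 against control. Same-numbered PBMC-hCG and IF mice had correlations of their deviations from -0.207 to 0.0571, and no mouse correlated best with its own number, so the numbers were not taken as pairs.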
